A study of Mus musculus with 13 samples.

Results

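The Mir17hg cluster of mmu-mir-17 to mmu-mir-92a-1 and the miR-106b-25 cluster within Mcm7 were followed through 13 small RNA libraries of mouse brain. All rows of the deposited count tables whose hairpin precursor was 1 of 9 named hairpins were taken, whatever their values, which made 9 hairpins of the 903 with reads in the series. These were mmu-mir-17, mmu-mir-18a, mmu-mir-19a, mmu-mir-20a, mmu-mir-19b-1 and mmu-mir-92a-1 of the Mir17hg cluster, and mmu-mir-106b, mmu-mir-93 and mmu-mir-25 of the miR-106b-25 cluster. A hairpin can give a mature miRNA from its 5p and from its 3p arm, and reads were listed for 17 of the 18 possible arms (none for a 5p arm of mmu-mir-19a).

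The libraries compared TgR mice, which carry a human AChE-R transgene (the stress-linked readthrough variant of acetylcholinesterase) on the FVB/N background, with FVB/N control mice. The transgene was driven constitutively by the minimal promoter-enhancer of cytomegalovirus, and the cells that expressed it were not measured here. There were 3 libraries each of TgR and FVB/N hippocampus, 4 of TgR prefrontal cortex (PFC) and 3 of FVB/N PFC. The PFC labels named a numbered animal for each library, whereas the hippocampal labels gave a number without naming an animal. The labels did not tie animals across the regions. No treatment and no age were labelled, and the transgene's own mRNA is not measured by small RNA libraries.

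Polycistronic clusters of this kind are transcribed as a single primary transcript, from which Drosha and Dicer release each hairpin and then each mature miRNA. A mature miRNA finds its targets mainly through its seed, the bases 2 to 8 from the 5′ end, so that miRNAs with a common seed share many targets. The Mir17hg cluster is known as an oncogenic cluster that is induced by MYC and E2F factors and is abundant in dividing cells, neural progenitors included. The miR-106b-25 cluster lies within Mcm7, which encodes a subunit of the replicative helicase, and is transcribed with it. Both belong to 1 family of duplicated clusters, and most neurons of the adult brain have left the cell cycle.

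The Mir17hg hairpins lay within 836 bases at chr14:115043671-115044506 on the plus strand (GRCm38), inside their noncoding host gene. The annotated transcript of that gene overlapped each of the 6 with an exon. The miR-106b-25 hairpins lay within 498 bases at chr5:138165321-138165818 on the minus strand, in an intron of the protein-coding Mcm7 transcripts that spanned them. For mmu-mir-93 and for mmu-mir-25, 1 of the 3 spanning Mcm7 transcripts overlapped the hairpin with an exon. The mature sequences below, from RefSeq on GRCm38.p6, are those of the most abundant arm of each hairpin and of both arms of mmu-mir-106b, with the seed in capitals, and they are ordered so that shared seeds stand together.
miR-17-5p: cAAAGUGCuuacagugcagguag
miR-20a-5p: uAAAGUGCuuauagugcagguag
miR-93-5p: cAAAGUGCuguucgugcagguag
miR-106b-5p: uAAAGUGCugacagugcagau
miR-18a-5p: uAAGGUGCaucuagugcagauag
miR-19a-3p: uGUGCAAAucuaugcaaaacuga
miR-19b-3p: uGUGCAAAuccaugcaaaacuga
miR-92a-3p: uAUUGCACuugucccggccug
miR-25-3p: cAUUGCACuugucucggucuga
miR-106b-3p: cCGCACUGuggguacuugcugc

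These sequences show which seeds the clusters share: each holds members with the miR-17 seed (AAAGUGC) and a member with the miR-25 seed (AUUGCAC), whereas the miR-19 seed (GUGCAAA) was found in the Mir17hg cluster alone. Counting positions from the 5′ end, miR-17-5p and miR-20a-5p differed at 2 of 23 positions, miR-17-5p and miR-93-5p at 4, and miR-25-3p and miR-92a-3p at 3 of the 21 they share. miR-19a-3p and miR-19b-3p differed by the single substitution U11C. The seed of miR-18a-5p (AAGGUGC) is close to that of miR-17-5p but was not pooled with it.

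The libraries held 8769851 to 18385985 counts. Levels are given as CPM, the read count scaled to a fixed library total, after TMM scaling, a correction for differences in library composition. Neuronal miRNAs such as miR-124 and miR-9 were abundant in all libraries. Their summed level was 163401 to 199791 CPM in hippocampus and 199910 to 270402 CPM in PFC. TgR hippocampus replicates 1 and 3 stood apart through the summed level of a list of choroid plexus and ependymal miRNAs (5939 and 4993 CPM). Over all rows of the tables, 25 were called between genotypes in hippocampus (adjusted p under 0.05 by edgeR's quasi-likelihood test), against 18 without TgR hippocampus replicate 1, 9 without its replicate 3, 12 without FVB/N hippocampus replicate 1 and 1 without FVB/N hippocampus replicate 3, and 0 members were called in any of these cases.

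The clusters were minor components of these brain libraries. Together the 9 hairpins took between 0.0629% and 0.109% of the counts of a library, and their most abundant product, miR-25-3p, ranked 121 among 1384 mature miRNAs by mean level. miR-25-3p had a median of 316 CPM over the 13 libraries (239.6 to 408), followed by miR-92a-3p at 151 CPM (106.3 to 213) and miR-93-5p at 117 CPM (96.0 to 167). miR-106b-3p followed at a median of 69.95 CPM, miR-106b-5p at 55.2 CPM, miR-20a-5p at 38.6 CPM, miR-17-5p at 35.1 CPM and miR-19b-3p at 13.2 CPM. The ranges of neighbours in this order overlapped, except that miR-25-3p was above miR-92a-3p and miR-93-5p above miR-106b-3p throughout, and miR-19b-3p stayed under miR-17-5p and above all lower arms. The other 9 arms had medians of 3.29 CPM (miR-93-3p) or less.

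**Figure D1:**
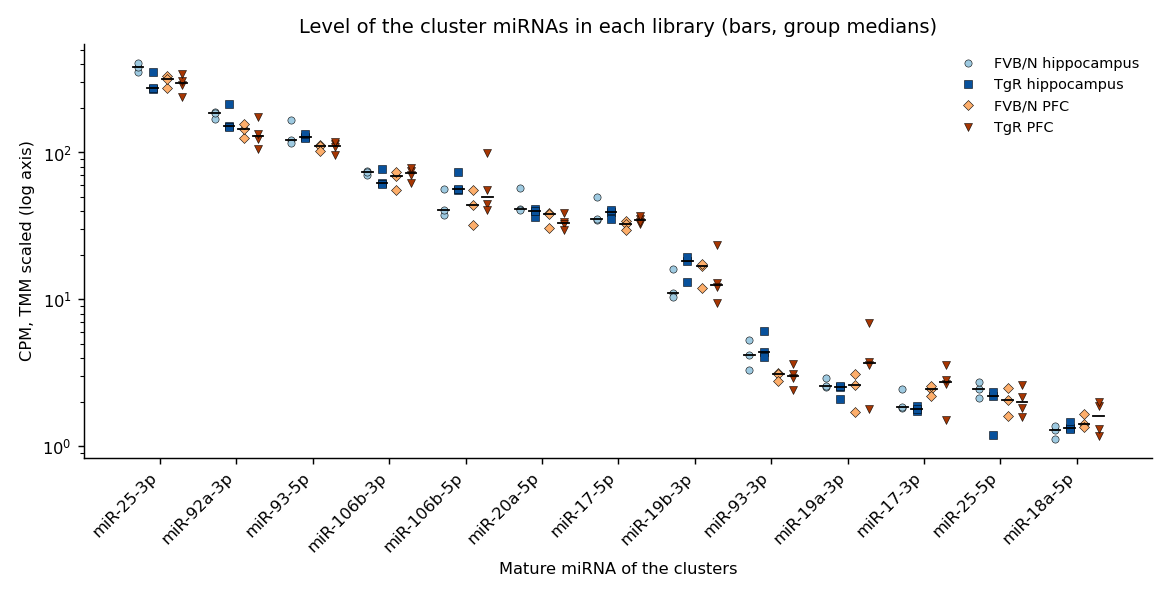
TMM-scaled CPM (log axis) of the 13 cluster miRNAs with a mean over 1 CPM, with 1 point per library, colours and shapes for the 4 groups, and bars at the group medians. miR-25-3p sits between 239.6 and 408 CPM and miR-18a-5p between 1.12 and 2.00 CPM. The widest spread among the abundant arms is that of miR-106b-5p (3.06-fold), and TgR and FVB/N overlap in both regions for the miRNAs tested.

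Within each cluster the products were very unequal, although their hairpins share a primary transcript. In the Mir17hg cluster, miR-92a-3p made up a median of 60.3% of the reads (55.5% to 68.9%), miR-20a-5p 15.4%, miR-17-5p 14.8%, miR-19b-3p 5.02%, miR-19a-3p 1.00% and miR-18a-5p 0.569%. In miR-106b-25, miR-25-3p made up a median of 55.7% (51.0% to 63.2%), miR-93-5p 20.96%, miR-106b-3p 11.9% and miR-106b-5p 8.93%. In each cluster the member with the miR-25 seed was thus the most abundant product, and in each it is the hairpin farthest downstream. Read counts of different mature miRNAs also depend on how well each is ligated and amplified, so that such comparisons between miRNAs are of reads.

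Some reads could not be assigned to a single locus. miR-19b-3p is also encoded by mmu-mir-19b-2, and miR-92a-3p by mmu-mir-92a-2, both of the paralogous cluster on chromosome X. The counts of miR-19b-3p at the 2 hairpins differed by at most 1.49% in a library, so that its level is that of both loci. The counts of miR-92a-3p were listed unequally, between 6.39 and 11.1 times as high at mmu-mir-92a-1 as at mmu-mir-92a-2. The mature miRNA is the same from both hairpins, so that this ratio does not settle how much each locus made. Its share of the Mir17hg cluster above is that of the reads listed at mmu-mir-92a-1.

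Most hairpins delivered reads from 1 arm. The 5p arm held a median of 94.99% of the reads of mmu-mir-17, 99.1% of mmu-mir-20a and 97.1% of mmu-mir-93, whereas it held 0.648% of those of mmu-mir-25 and 0.186% of those of mmu-mir-92a-1. mmu-mir-18a was less one-sided, at a median of 71.1% from 276 reads of the 5p and 113 of the 3p arm in all libraries together. The exception was mmu-mir-106b, in which both arms were abundant and neither led in all libraries. Its 5p arm held 34.9%, 43.1% and 35.5% of the reads in the FVB/N hippocampus replicates 1 to 3, and 47.1%, 54.9% and 42.2% in those of TgR hippocampus. In PFC it held 44.2%, 44.3% and 30.4% in FVB/N and 37.2%, 58.5%, 47.3% and 33.9% in TgR. The 5p arm exceeded the 3p arm in only 2 libraries, TgR hippocampus replicate 2 and TgR PFC replicate 2, and the groups overlapped. Between libraries the 3p arm of mmu-mir-106b was steady (55.5 to 78.5 CPM, a 1.42-fold range) while the 5p arm spanned a 3.06-fold range (32.2 to 98.6 CPM).

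**Figure D2:**
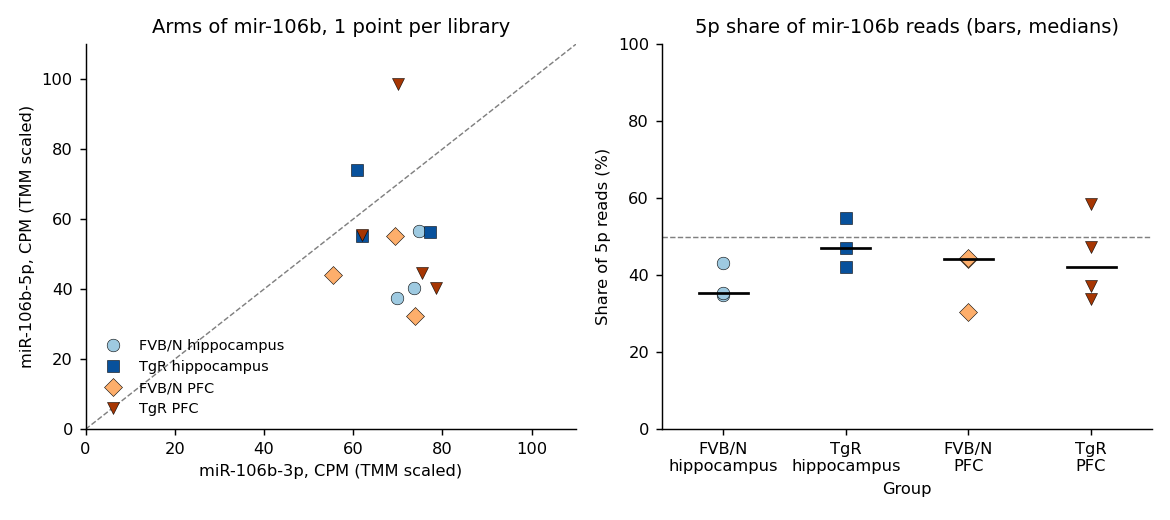
Left, CPM of miR-106b-5p against miR-106b-3p in the 13 libraries, with a dashed line where they are equal. Right, the 5p arm's share of mmu-mir-106b reads by group, with bars at the medians and a dashed line at 50%. Points spread along the 5p axis (32.2 to 98.6 CPM) more than along the 3p axis (55.5 to 78.5 CPM), and the highest is TgR PFC replicate 2.

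The first question was whether the transgene went with other levels of these miRNAs in hippocampus. No member was called different between TgR and FVB/N hippocampus: of 13 member miRNAs with enough reads, 0 passed an adjusted p of 0.05 by edgeR's quasi-likelihood test, and 0 had an unadjusted p under 0.05. DESeq2 also called 0 members, with 1 at an unadjusted p under 0.05. Over all 726 rows tested, 3.44% were called. The median log2 fold change was -0.09 over the members and -0.00306 over all rows, with 4 members above 0 and 9 below. The groups overlapped for all 13 members, whereas over all rows 11.4% had every TgR library above every FVB/N library and 13.2% had every one below.

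Among the abundant arms, the estimates farthest from 0 in hippocampus were those of miR-25-3p, miR-106b-5p and miR-19b-3p. miR-25-3p stood at 352, 384 and 408 CPM in the FVB/N replicates and at 272, 276 and 355 CPM in the TgR replicates. TgR replicates 1 and 2 were lower than all FVB/N libraries, while TgR replicate 3 lay among them. The log2 fold change was -0.33 (SE 0.15, 95% interval -0.68 to 0.01, edgeR adjusted p = 0.288). miR-106b-5p, from the sister hairpin of the same cluster, leaned the other way, with 37.5, 56.5 and 40.5 CPM in FVB/N and 55.2, 74.1 and 56.3 CPM in TgR. Its FVB/N replicate 2 overlapped the TgR libraries, and the log2 fold change was 0.46 (SE 0.21, 95% interval -0.02 to 0.94, edgeR adjusted p = 0.288). miR-19b-3p, a member with the miR-19 seed, was at 11.1, 16.1 and 10.4 CPM in FVB/N and 18.1, 19.5 and 13.2 CPM in TgR. TgR replicate 3 overlapped the control libraries, and the log2 fold change was 0.43 (SE 0.23, 95% interval -0.10 to 0.96, edgeR adjusted p = 0.353).

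The remaining abundant arms lay closer to 0. The log2 fold changes in hippocampus were -0.24 for miR-20a-5p, -0.12 for miR-106b-3p, -0.09 for miR-92a-3p, -0.07 for miR-93-5p and -0.06 for miR-17-5p, with SEs of 0.16 to 0.19. Scaled by library size alone, miR-93-5p and miR-17-5p came out at 0.000762 and 0.000123, on the other side of 0. Across the 8 abundant arms the 95% intervals ran from a fold of 0.625 to a fold of 1.94, the lowest bound being that of miR-25-3p and the highest that of miR-19b-3p. For miR-106b-3p the interval ran from -0.47 to 0.24 on the log2 scale.

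**Figure D3:**
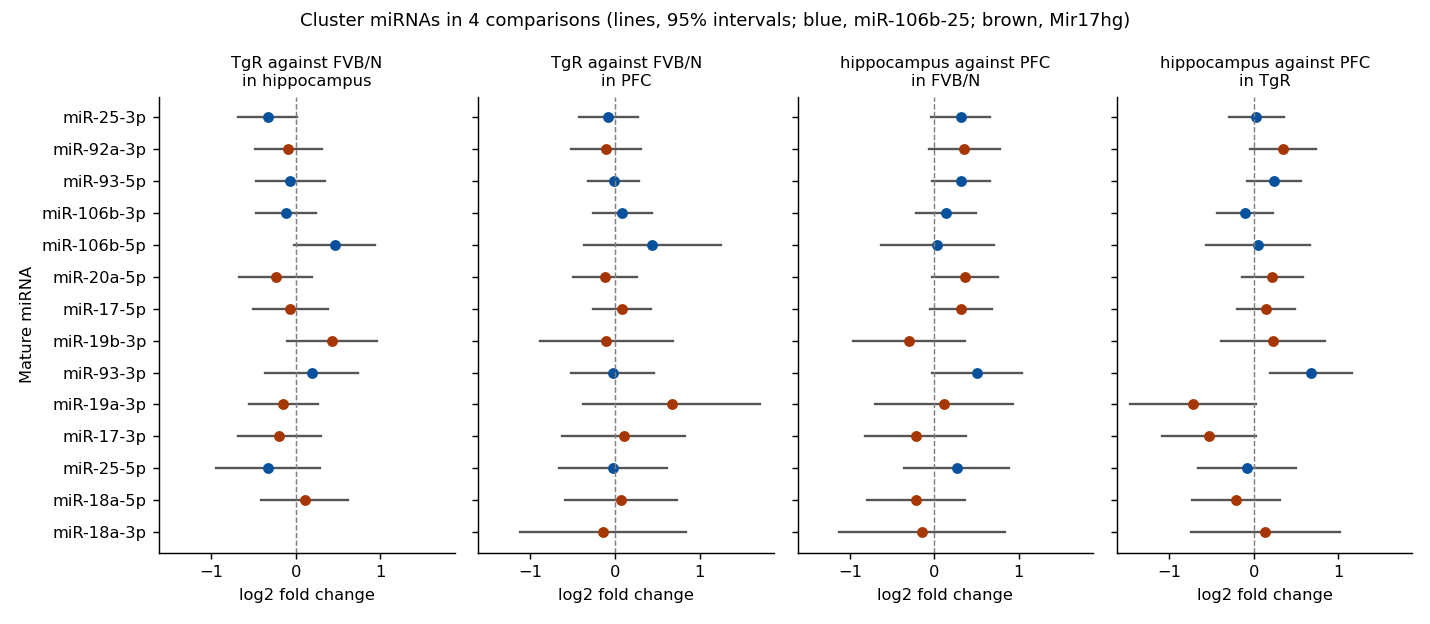
log2 fold changes (points) with 95% intervals (lines) of the member miRNAs that passed the filter on low counts, for TgR against FVB/N in hippocampus and in PFC and for hippocampus against PFC in FVB/N and in TgR. All intervals span 0 except that of miR-93-3p in hippocampus against PFC of TgR mice (0.19 to 1.16).

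In PFC, too, no member was called between TgR and FVB/N. Of 14 member miRNAs tested, edgeR called 0 and found 0 at an unadjusted p under 0.05, and DESeq2 also called 0, while 0.137% of all 730 rows were called. The members' median log2 fold change was -0.02, against 0.00149 over all rows. No member had groups that did not overlap. Over all rows, 3.7% had every TgR PFC library above every FVB/N one and 1.37% had every one below. miR-25-3p was at 272, 332 and 316 CPM in FVB/N and at 288, 307, 239.6 and 343 CPM in TgR. The TgR libraries lay on both sides of the controls, and the log2 fold change was -0.08 (SE 0.15, 95% interval -0.43 to 0.27).

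The largest estimates in PFC shrank when TgR PFC replicate 2 was left out. miR-106b-5p was at 43.9, 55.2 and 32.2 CPM in FVB/N PFC and at 44.6, 98.6, 55.6 and 40.3 CPM in TgR PFC. TgR replicate 2 stood alone at the top, and the log2 fold change of 0.44 (SE 0.36, 95% interval -0.37 to 1.25) became 0.04 without it. miR-19a-3p behaved similarly, at 2.62, 3.10 and 1.71 CPM in FVB/N and 1.79, 6.89, 3.76 and 3.57 CPM in TgR. Its log2 fold change was 0.67 (SE 0.46, 95% interval -0.38 to 1.72) with that library and 0.25 without it. miR-19b-3p was highest in the same library too, at 23.6 CPM beside 9.48, 12.9 and 12.2 CPM in the other TgR PFC replicates. Its log2 fold change was -0.10 with that library and -0.48 without it, farther from 0 (edgeR adjusted p = 0.791). TgR PFC replicate 2 had the fewest counts of the series, 8769851. It also had the highest summed level of a red blood cell list (miR-144, miR-451 and miR-486). That sum was 2410 CPM, beside 1460 to 1688 CPM in the other TgR PFC replicates. The part of depth or of blood cells in these levels was not tested.

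Whether the effect of genotype differed between the regions was tested directly as the difference of the log2 fold changes. edgeR called 0 of 14 members, with 0 at an unadjusted p under 0.05, and DESeq2 called 0, where 0.533% of all 751 rows were called. The estimates for the abundant arms ran from -0.28 for miR-25-3p (SE 0.22) to 0.53 for miR-19b-3p (SE 0.42). Without TgR PFC replicate 2 the estimate of miR-19b-3p was 0.85 (edgeR adjusted p = 0.295), and 1 member had an unadjusted p under 0.05. For miR-25-3p the estimates with 1 library left out ran from -0.37 to -0.17, the latter without TgR hippocampus replicate 1. Among the 95% intervals of the abundant arms, that of miR-19b-3p reached highest, to a fold of 2.69.

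The second question was whether the regions differed, asked separately in controls and in TgR mice. None of the members passed the test in FVB/N mice. edgeR called 0 of 14 members, with 0 at an unadjusted p under 0.05, DESeq2 also called 0, and 5.33% of all 751 rows were called. The members' median log2 difference was 0.20, against -0.02 over all rows, and 10 of 14 were above 0. Of the abundant arms, miR-19b-3p was below 0, at -0.30 (SE 0.31), and miR-106b-5p was at 0.04 (SE 0.31). For 6 of the 14 (miR-17-5p, miR-20a-5p, miR-25-3p, miR-92a-3p, miR-93-3p and miR-93-5p) every hippocampal library was above every PFC library, and for 0 of them every one was below. Over all rows those shares were 12.9% and 9.45%. The count of 6 fell to 4 with DESeq2 size factors and to 2 (miR-25-3p and miR-92a-3p) with library size alone, so that it rested on the scaling.

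The levels behind this count were close to each other. miR-92a-3p was at 169.8, 189.8 and 186 CPM in FVB/N hippocampus and 126, 145 and 156 CPM in FVB/N PFC, and the lowest hippocampal library was above the highest PFC library. The log2 difference was 0.35 (SE 0.19, 95% interval -0.06 to 0.77, edgeR adjusted p = 0.354). miR-93-5p was at 122, 167 and 117 CPM in FVB/N hippocampus and 113, 111 and 102 CPM in FVB/N PFC, with replicate 2 well above the others. The log2 difference was 0.31 (SE 0.16, 95% interval -0.03 to 0.66, edgeR adjusted p = 0.313). miR-20a-5p and miR-25-3p differed by 0.37 (SE 0.18) and 0.31 (SE 0.16) on the log2 scale, with an edgeR adjusted p = 0.293 and an edgeR adjusted p = 0.322. Without FVB/N hippocampus replicate 2 the differences were 0.13 for miR-20a-5p, 0.076 for miR-93-5p and 0.068 for miR-17-5p. Without FVB/N PFC replicate 1 they were 0.19 for miR-25-3p and 0.23 for miR-92a-3p.

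In TgR mice no member was called between the regions either. edgeR called 0 of 14 members and found 1 at an unadjusted p under 0.05, DESeq2 also called 0, and 7.99% of all 751 rows were called. The members' median log2 difference was 0.10, against 0.02 over all rows. miR-93-3p, the minor arm of mmu-mir-93, was at 4.38, 4.05 and 6.07 CPM in TgR hippocampus and at 3.09, 2.40, 2.90 and 3.63 CPM in TgR PFC. All hippocampal libraries were above all PFC libraries, the log2 difference was 0.68 (SE 0.23, 95% interval 0.19 to 1.16), and the edgeR adjusted p was 0.0879. When a single row was kept for each mature miRNA, so that those listed at several hairpins entered the adjustment only once, its adjusted p became 0.0432. Without TgR hippocampus replicate 3 it was 0.317. In FVB/N the same arm was at 3.29, 5.28 and 4.17 CPM in hippocampus and 3.15, 3.10 and 2.77 CPM in PFC, with a log2 difference of 0.50 (SE 0.25, edgeR adjusted p = 0.288).

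The major arm of mmu-mir-93 was compared in the same way. miR-93-5p was at 127, 125 and 134 CPM in TgR hippocampus and 114, 109, 96.0 and 119 CPM in TgR PFC, again without overlap, with a log2 difference of 0.24 (SE 0.15, 95% interval -0.08 to 0.56, edgeR adjusted p = 0.417). miR-93-3p and miR-93-5p were the only 2 of 14 members of which every TgR hippocampal library was above every TgR PFC library (3 of 14 with library size alone), and no member had every one below. Over all rows those shares were 10.1% and 12.4%. miR-92a-3p, at 151, 148 and 213 CPM in TgR hippocampus and 124, 133, 106.3 and 174 CPM in TgR PFC, overlapped through TgR PFC replicate 4 (log2 difference 0.34, SE 0.18, edgeR adjusted p = 0.317). miR-25-3p differed by only 0.03 (SE 0.15, 95% interval -0.29 to 0.36) between the regions of TgR mice, beside 0.31 in FVB/N. Those contrasts were not shown to differ, since the test of the difference gave -0.28 (SE 0.22, edgeR adjusted p = 0.881).

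Marker miRNAs of other cells moved in these same comparisons. Between the regions the oligodendrocyte list of miR-219 and miR-338 was higher in hippocampus, with 4 of 6 tested rows called in FVB/N and 5 of 6 in TgR, and its summed level was 1413 to 1919 CPM in FVB/N hippocampus against 679 to 845 CPM in FVB/N PFC. In TgR mice the sums were 1775 to 2845 CPM in hippocampus, highest in replicate 3, against 569 to 782 CPM in PFC. The neuronal list, of lower summed level in hippocampus, had 0 of 19 tested rows called between the regions in FVB/N. In TgR 2 of 19 were called, both lower in hippocampus. Over all rows, 5.33% were called between the regions in FVB/N and 7.99% in TgR. The neuronal rows did not fall as a set. Their median log2 difference was -0.00211 in FVB/N (-0.64 to 0.14) and -0.00608 in TgR (-0.72 to 0.27). Between the genotypes, a list of choroid plexus and ependymal miRNAs, such as miR-204 and miR-449a, was higher in TgR hippocampus in 6 of 11 tested rows, with 1661 to 5939 CPM against 998 to 1374 CPM in FVB/N. A red blood cell list (miR-144, miR-451 and miR-486) was lower there in 2 of 7, with 591 to 836 CPM against 1326 to 1491 CPM. The part of these cells in the levels of the clusters was not tested. In bulk tissue, fewer cells of a type and less RNA per cell cannot be told apart.

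The balance of the arms was compared on its own scale, as the log2 ratio of 5p to 3p counts with 0.5 added to each. Of the 9 hairpins, 5 had both arms above the filter (mmu-mir-17, mmu-mir-18a, mmu-mir-106b, mmu-mir-93 and mmu-mir-25), and limma called 0 of them in any of 4 comparisons. Over all 268 such hairpins, 0.373% were called between genotypes in hippocampus, 0% between genotypes in PFC, 0% between regions in FVB/N and 1.49% between regions in TgR. mmu-mir-106b had the largest difference between genotypes in hippocampus, where the log2 ratio was 0.61 higher in TgR (SE 0.35, 95% interval -0.15 to 1.36, limma adjusted p = 0.482). In PFC the difference was 0.27 (SE 0.33, 95% interval -0.43 to 0.98), and without TgR PFC replicate 2 it was -0.00518.

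For mmu-mir-17 the ratio leaned the same way in both genotypes, with more 5p per 3p in hippocampus. The log2 ratio was higher in hippocampus than in PFC by 0.54 in FVB/N (SE 0.28, 95% interval -0.05 to 1.13) and by 0.63 in TgR (SE 0.26, 95% interval 0.08 to 1.18). The latter had an unadjusted p of 0.0284 and a limma adjusted p of 0.328. The 3p arm entered at 22 to 45 counts a library, so that these ratios were set by few reads.

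Grouped by seed, the clusters supplied nearly all reads of the miR-17 seed in these tissues. miR-93-5p, miR-106b-5p, miR-20a-5p and miR-17-5p made up 99.7% of the summed mean level of all mature miRNAs with that seed, the rest coming from miR-20b-5p and miR-106a-5p of the X-linked cluster. The summed level was 234 to 331 CPM in FVB/N hippocampus, 264 to 277 CPM in TgR hippocampus, 203 to 231 CPM in FVB/N PFC and 216 to 276 CPM in TgR PFC, and the genotypes overlapped in each region. Each mature miRNA entered the seed sums and shares once, at its hairpin row with the most reads. This left out the mmu-mir-92a-2 row of miR-92a-3p (13.1 to 25.7 CPM), and miR-19b-3p of both loci was counted with the clusters. For the miR-25 seed the clusters supplied 68.4%, with the reads of miR-92a-3p listed at mmu-mir-92a-1 counted as theirs. The remainder came mainly from miR-92b-3p at a mean of 163 CPM and miR-32-5p at 55.8 CPM, which are encoded elsewhere.
miR-92b-3p: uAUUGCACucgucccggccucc
miR-32-5p: uAUUGCACauuacuaaguugca

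Of these, miR-92b-3p, which differed from miR-92a-3p at 2 of 21 positions, was higher in hippocampus than in PFC of TgR mice by 0.66 on the log2 scale (SE 0.19, edgeR adjusted p = 0.0430). In FVB/N mice it differed by 0.61 (SE 0.20, edgeR adjusted p = 0.0890). The sum over the miR-25 seed was 785 to 874 CPM in FVB/N hippocampus, 652 to 857 CPM in TgR hippocampus, 573 to 683 CPM in FVB/N PFC and 511 to 723 CPM in TgR PFC. With TMM scaling, the sums of the regions did not overlap in FVB/N and overlapped in TgR. Other scalings are not given for these sums, and a difference between the genotypes in this was not tested. The sums include miR-92b-3p, at 198 to 211 CPM in FVB/N hippocampus and 111 to 172 CPM in FVB/N PFC. The miR-19 seed was supplied by miR-19b-3p and miR-19a-3p alone, and its sum was 11.3 to 30.6 CPM.

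**Figure D4:**
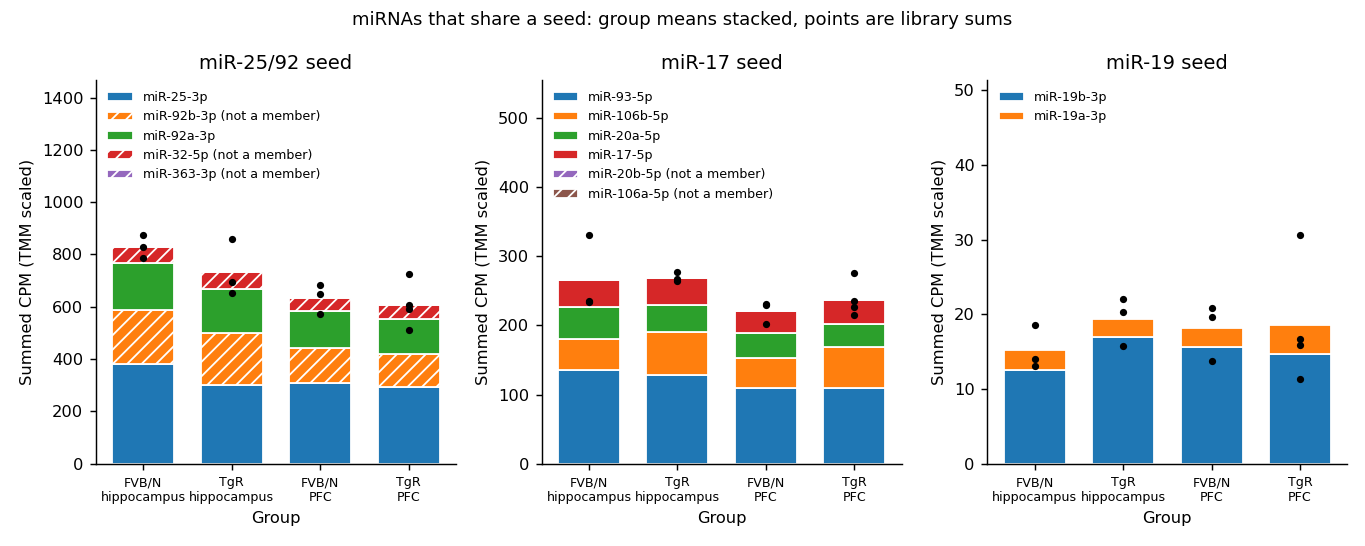
Group means of TMM-scaled CPM, stacked by mature miRNA, for miRNAs that share the miR-25, miR-17 or miR-19 seed, with hatching for miRNAs outside the clusters and points for the sums of single libraries. Cluster miRNAs fill nearly all of the miR-17 stack (99.7%) and 68.4% of the miR-25 stack, which miR-92b-3p and miR-32-5p complete.

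Of the X-linked paralogs, those with mature miRNAs of their own were rare. This cluster, at chrX:52741693-52742567 on the minus strand, holds 6 hairpins, and its summed level was 25.1 to 47.1 CPM. Most of that came from the rows of the shared miRNAs, with 13.1 to 25.7 CPM for miR-92a-3p at mmu-mir-92a-2 and 9.48 to 23.7 CPM for miR-19b-3p at mmu-mir-19b-2, the latter being nearly the same counts as at mmu-mir-19b-1. mmu-mir-18b had no reads. miR-20b-5p was at 0.0764 to 1.23 CPM, miR-106a-5p at 0.0764 to 0.360 CPM and miR-363-3p at 0.153 to 2.03 CPM, where 3 counts correspond to 0.163 to 0.342 CPM depending on the library. None of its tested rows was called in any comparison. The largest estimate was that of miR-20b-5p for the difference between regions in the effect of genotype (1.75 on the log2 scale, SE 0.85, edgeR adjusted p = 0.621), from at most 23 counts in a library.

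Other miRNAs known for ties to the cell cycle (miR-15 and miR-16 with their relatives, miR-34a, miR-221 and miR-222) had 16 tested rows. Between genotypes 0 were called in hippocampus and 0 in PFC, against 3.44% and 0.137% of all rows. For the difference between regions 0 were called, against 0.533%. In FVB/N mice 1 was higher in hippocampus, and in TgR mice 0 were called between the regions, against 5.33% and 7.99% of all rows. So few rows cannot be told apart from those shares. The median log2 fold change of the 16 rows between genotypes was 0.05 in hippocampus and 0.11 in PFC. The miR-290 and miR-302 clusters of pluripotent cells, which carry seeds close to that of miR-17, gave no row that passed the filter.

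Over the 13 libraries, the mean profile of the most abundant arm of each hairpin of the Mir17hg cluster, each centred on its own mean log2 CPM, was most closely followed by miR-30e-5p (root mean square difference 0.12 on the log2 scale), miR-210-3p (0.14) and miR-181a-1-3p (0.15). For miR-106b-25 these were miR-532-5p (0.10), miR-181a-1-3p (0.14) and miR-148b-3p (0.14). The median difference over the 630 mature miRNAs compared was 0.36 and 0.33, respectively. Flat profiles resemble one another in this measure, and all points share the same libraries.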

How the data were processed

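Small RNA was sequenced from 13 libraries of mouse hippocampus and prefrontal cortex. The authors aligned reads to miRBase version 21 with miRExpress 2.0 at default settings, and the deposited files give raw counts per pair of hairpin and mature miRNA, 1 file per library, unlisted pairs being taken as 0. A mature miRNA made by several hairpins has a row at each, with nearly equal counts for miR-19b-3p and unequal counts for miR-92a-3p. Groups followed the labels. The 9 hairpins and all lists were chosen with earlier results of these data known. Counts were tested with edgeR 4.0.16 (TMM, filterByExpr with a minimum count of 10, quasi-likelihood F test, Benjamini-Hochberg over all rows, threshold 0.05); R 4.3.3. For genotype, each region was fitted alone, and all 13 libraries were fitted for the other comparisons. Arm ratios, as log2 of the deposited counts plus 0.5, were tested with limma 3.58.1 over all hairpins. DESeq2 1.42.0, other scalings, no filter, left-out libraries and a replicate block were alternatives. All arms of the members were named, with the paralogs that passed the filter and the 3 miRNAs nearest each cluster's profile; miR-92b-3p and miR-32-5p were named after their values were seen, as the other miRNAs with the miR-25 seed. Scripts were tested on simulated data. The changes planted there were larger than the estimates of the members here, so that this test does not tell how small a change could be found. Libraries with the same replicate number were not taken as pairs. Between the regions of TgR mice, their deviations from the group means correlated at -0.16 to 0.45, and between those of FVB/N mice at 0.05 to 0.20. FVB/N and TgR PFC libraries of the same number, which are of different mice, correlated at -0.27 to 0.46. Libraries with different numbers were not compared in this way, so that the values cannot decide whether the regions came from the same mice. No libraries of a group agreed within counting noise. Positions and host genes came from GENCODE M21 (GRCm38), and all 17 mature sequences were taken from RefSeq by name and chromosome.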

Additional observations from a re-analysis of the deposited data

Results flagged for a closer look

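Among 14 member miRNAs and 5 arm ratios examined in the 4 TgR PFC libraries, 1 value had a gap to its neighbours that was large for the group's range, where chance flags about 1 in 20. The log2 ratio of the 5p to the 3p arm of mmu-mir-18a was 2.19 in TgR PFC replicate 3, while the other replicates lay between 1.22 and 1.303. It rested on 20 reads of the 5p and 4 of the 3p arm. For miR-106b-5p and miR-19b-3p the gap of TgR PFC replicate 2 above the next library took 0.737 and 0.760 of the range, which was under the limit for 4 values. No member was called for a difference between the regions in the effect of genotype.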

How the results depend on the processing

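No member was called in the 5 comparisons or for the arm ratios, and that count of 0 was unchanged in all other settings except 1: with a single row per mature miRNA, 1 member (miR-93-3p) was called between the regions of TgR mice. The replicate numbers were not treated as pairs, and with a replicate block the count of members called stayed at 0 in each comparison. Where genotypes were compared, this block joined different mice that shared only a number. Between the regions the labels did not say whether equal numbers meant the same mouse. The block was thus an alternative fit and not a test of pairing. Members at an unadjusted p under 0.05 reached at most 5 (hippocampus against PFC in FVB/N). Library size alone moved the median of all rows between the regions of TgR mice from 0.02 to 0.14, and the members' median from 0.10 to 0.22. Directions of estimates near 0 were not stable. Scaled by library size alone, miR-93-5p and miR-17-5p in hippocampus became 0.00076 and 0.00012, miR-92a-3p and miR-93-5p became 0.13 and 0.055 for the difference between regions, and miR-106b-3p became 0.035 between the regions of TgR mice. With all 13 libraries in the fit, miR-93-5p and miR-93-3p in PFC became 0.0084 and 0.0094. For the difference between regions, miR-92a-3p was 0.021 by DESeq2 and with its size factors, 0.087 without the filter, 0.036 with a single row per mature miRNA and 0.12 with the block, and miR-93-5p was 0.019 without the filter. The block gave -0.074 for miR-106b-5p there and -0.028 between the regions of TgR mice, where miR-106b-3p was 0.040 without the filter. Leaving out single libraries turned further estimates. For TgR against FVB/N in hippocampus, the estimates ran from -0.29 to 0.015 for miR-92a-3p, from -0.21 to 0.091 for miR-93-5p, from -0.21 to 0.11 for miR-17-5p and from -0.026 to 0.36 for miR-93-3p. In PFC they ran from -0.075 to 0.029 for miR-93-5p, from -0.012 to 0.16 for miR-106b-3p, from -0.48 to 0.061 for miR-19b-3p, from -0.11 to 0.039 for miR-93-3p and from -0.014 to 0.48 for the arm ratio of mmu-mir-106b. For the difference between the regions they ran from -0.14 to 0.14 for miR-92a-3p, from -0.18 to 0.15 for miR-93-5p, from -0.16 to 0.36 for miR-106b-5p, from -0.26 to 0.074 for miR-20a-5p, from -0.30 to 0.064 for miR-17-5p and from -0.013 to 0.41 for miR-93-3p. For hippocampus against PFC they ran in FVB/N from -0.020 to 0.21 for miR-106b-3p, from -0.23 to 0.20 for miR-106b-5p, from -0.10 to 0.24 for miR-19a-3p and from -0.39 to 0.047 for the arm ratio of mmu-mir-106b. In TgR they ran from -0.10 to 0.13 for miR-25-3p, from -0.21 to 0.0017 for miR-106b-3p and from -0.10 to 0.40 for miR-106b-5p. The cause of these changes was not tested. The hippocampal genotype comparison, with 25 calls over all rows, gave 1 to 28 calls when a library was dropped (1 without FVB/N hippocampus replicate 3), while 52 were made by DESeq2, 63 without the filter and 9 with the block. Choosing the scaling after seeing the data changed the 6 members without overlap in FVB/N to 4 or 2, and the 2 in TgR to 2 or 3. Depth limited the arms under 5 CPM most, at 0 to 115 counts a library.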

Other observations

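The minor arms of the clusters, the products usually degraded as passenger strands, could be followed in part. miR-17-3p was at 2.20 to 2.57 CPM in FVB/N PFC, 1.51 to 3.55 CPM in TgR PFC, 1.83 to 2.46 CPM in FVB/N hippocampus and 1.73 to 1.87 CPM in TgR hippocampus. Its log2 difference between hippocampus and PFC of TgR mice was -0.53 (SE 0.26, edgeR adjusted p = 0.284), while its 5p partner differed by 0.15 (SE 0.16). miR-19a-3p, the major product of its hairpin but a rare one, differed by -0.71 (SE 0.35, edgeR adjusted p = 0.279) in the same comparison, and by -0.35 (edgeR adjusted p = 0.498) without TgR PFC replicate 2. miR-25-5p was at 1.19 to 2.73 CPM. miR-20a-3p and miR-92a-1-5p reached 15 and 9 counts at most in a library, and miR-19b-1-5p had no reads in some libraries and at most 5, which is why these arms were not tested.

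Blood and vessel cells were followed by their own miRNAs. The white blood cell list (miR-142, miR-150 and miR-223) was at 396 to 402 CPM in FVB/N hippocampus, 419 to 452 CPM in TgR hippocampus, 470 to 586 CPM in FVB/N PFC and 524 to 623 CPM in TgR PFC, highest in TgR PFC replicate 2. Of its tested rows, 0 of 5 were called between genotypes in hippocampus, 0 of 6 in PFC and 2 of 6, both lower in hippocampus, between the regions of TgR mice. The vascular list (miR-126, miR-143 and miR-145) had 0 of 6 rows called in each comparison. The part of either cell type in the levels of the clusters was not tested.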
